A study of Homo sapiens with 6 samples.

Results

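Replication origins were mapped by nascent-strand sequencing (NS-seq) in U2OS, a human osteosarcoma cell line, and are described here for the gene-poor chromosomes 4, 13 and 18. NS-seq isolates short, newly made DNA by size and removes broken DNA with an exonuclease that spares strands carrying an RNA primer, so that a listed peak marks DNA near a start site of replication. Cells received either a control siRNA (gl3) or an siRNA against ORCA (siORCA), with 2 nascent-strand samples in each group, all of them from the same line. Whether a group's 2 samples came from separate cultures is not stated in the labels. The p-values therefore measure the spread between these samples only, and that spread may be technical. The 2 genomic DNA samples named in the labels, 1 per siRNA, were not analysed here.

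Members were all peaks that start on T2T-CHM13 chromosome 4 outside 46.7 to 58.2 Mb, on chromosome 13 from 18 Mb on, or on chromosome 18 outside 12.4 to 23.9 Mb, so that the centromeric stretches and the short arm of chromosome 13 were left out. The rule uses position alone. It took 62018 of the 945863 peaks in the 4 lists, over 346.7 Mb of sequence. By sample these were 11299 of 181215 peaks in control 1, 17477 of 235865 in control 2, 23109 of 330265 in siORCA 1 and 10133 of 198518 in siORCA 2. The stretches left out on the same chromosomes held between 942 and 1882 peaks per sample. Within 1 Mb of the 5 bounds, the lists held 252, 326, 478 and 249 peaks inside the members' side and 249, 349, 497 and 308 outside it, in the same sample order. Each list was called by itself and holds no read counts, so its depth is unknown, and the number of peaks may shift with sequencing depth and not with origin use alone.

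In human cells, origins are licensed when the origin recognition complex loads the replicative helicase on chromatin, and only some licensed sites fire in a given cycle. ORCA, the product of LRWD1, binds the recognition complex and stabilises it on chromatin, above all on heterochromatin. Gene-rich DNA is known for early replication and closely placed origins, while gene-poor DNA tends to lie at the nuclear edge, to replicate late and to hold long stretches with few mapped origins. Chromosome 18 is a classic example of a gene-poor chromosome at the nuclear edge, with chromosome 19 as its gene-rich counterpart in the interior.

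The gene-poor label held in the RefSeq gene table. Chromosome 13 carried 338 protein-coding genes, chromosome 18 carried 270 and chromosome 4 carried 770, which are 2.96, 3.36 and 4.05 per Mb in that table. These were the 3 lowest densities among 23 chromosomes (1 to 22 and X). Chromosome 19, at the other extreme, carried 24.8 per Mb. The table is on GRCh38.p14, so it gave counts per chromosome only and no gene was placed on a window or peak.

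Origin peaks were sparse on these chromosomes in every sample. A median 1 Mb window of the members held 24 and 42 peaks in controls 1 and 2, and 50 and 19 in siORCA 1 and 2, over 343 windows that lie wholly inside the stretches. A median window elsewhere on chromosomes 1 to 22 and X, over 2698 windows, held 44, 63, 87 and 46. The members thus lay 45.5%, 33.3%, 42.5% and 58.7% below the rest, in the same order. The mean log2 ratio was −0.88 ± 0.289 (SD, n = 4 samples), lower in 4 of 4 samples (exact sign-flip permutation test, two-sided, p = 0.13, the smallest that 4 samples allow). Windows of the gene-dense chromosomes 17, 19 and 22 held medians of 121.5, 149, 209 and 130.5 peaks, which is 3.55 to 6.87 times the members' medians.

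Ordered by the median window of each whole chromosome, centromeric stretches included, chromosome 13 ranked 2 and chromosome 4 ranked 3 from the bottom in all 4 samples, above the X chromosome. Chromosome 18 ranked 6, 6, 8 and 4 from the bottom in control 1, control 2, siORCA 1 and siORCA 2. Chromosome 18 has fewer genes per Mb than chromosome 4, yet it held more peaks per Mb of member sequence in each sample. Its values were 42.1 and 59.5 in controls 1 and 2, and 87.7 and 38.0 in siORCA 1 and 2, against 31.0, 49.2, 60.9 and 29.0 on chromosome 4. Chromosome 13 held 28.7, 46.1, 62.4 and 23.3. Chromosome 13 was the sparsest of the 3 in 3 samples, and chromosome 4 in siORCA 1.

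**Figure D1:**
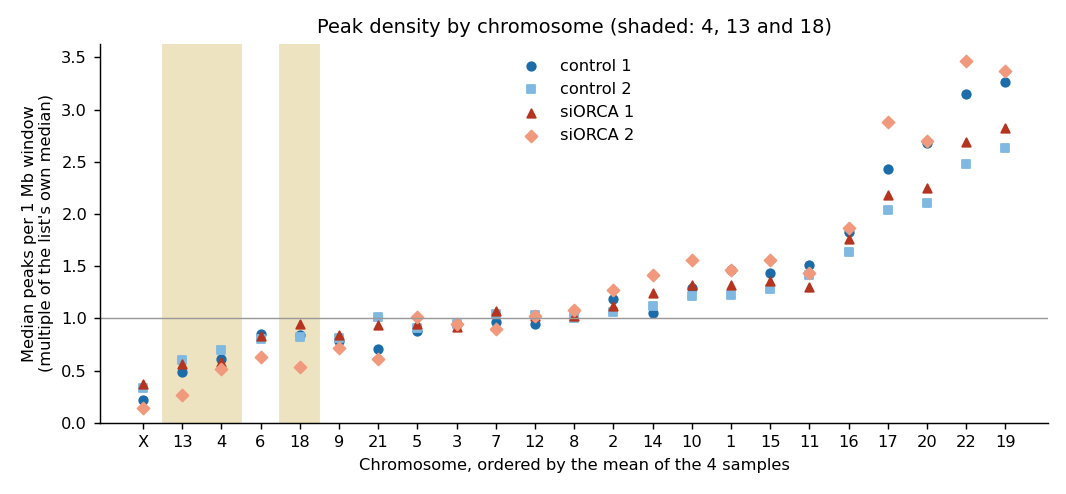
Median number of peaks per 1 Mb window on each of 23 chromosomes (vertical axis), as a multiple of the median over all windows of the same list, with chromosomes on the horizontal axis in order of the mean over samples and 1 point per sample. The shaded chromosomes 13 and 4 follow X as the sparsest, at means of 0.481 and 0.601, and 18 lies further up at 0.787, while 19 and 22 lie near 3 (3.02 and 2.95).

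Neighbouring peaks lay far apart. The median distance from the end of one member peak to the start of the next was 13.3 kb and 9.54 kb in controls 1 and 2, and 6.81 kb and 11.4 kb in siORCA 1 and 2. On the other chromosomes it was 5.44, 4.88, 3.23 and 4.25 kb. The members' median was larger in 4 of 4 samples, by 5.81 ± 2.02 kb (SD, n = 4; exact sign-flip permutation test, p = 0.13, the smallest possible). The spacing was uneven as well as wide: mean distances of 30.4, 19.6, 14.8 and 34.0 kb were more than the medians in each sample, with a long tail of large gaps. Means on the other chromosomes, at 15.47, 12.03, 8.483 and 13.92 kb, were also more than their medians. Uneven spacing was thus not particular to the members. The next peak lay within 5 kb for 28.5%, 34.4%, 42.2% and 31.8% of member distances, against 47.8%, 50.6%, 61.7% and 54.2% on the other chromosomes.

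Gaps of at least 100 kb without a listed peak numbered 764 and 421 in controls 1 and 2, and 287 and 780 in siORCA 1 and 2. They took up 37.3%, 17.7%, 11.7% and 48.5% of the member sequence. Control 1 and siORCA 2 were the samples with most of the sequence in such gaps, so the groups overlapped. The longest single gap was in siORCA 2, on chromosome 4 from 139963028 to 140986528 (1023.5 kb), followed there by gaps of 1022 kb on chromosome 13 from 62527479 and 1017 kb on chromosome 4 from 164602697. The longest gap was 668 kb in control 1, on chromosome 4 from 164238394 to 164906302. It was 566 kb in control 2, on chromosome 13 from 63300476 to 63866373, and 319 kb in siORCA 1, on chromosome 13 from 70658962 to 70977913.

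Few of these gaps were empty in every list. With the peaks of all 4 lists merged, 52 gaps of at least 100 kb were left, which took up 6.62 Mb or 1.91% of the member sequence. The longest ran over 208 kb on chromosome 13 from 86607180 to 86815167, and the next over 194 kb on chromosome 13 from 63355856 to 63549772. The third lay at the short-arm end of chromosome 18, from 1889 to 181916. Of the 5 longest, 4 were on chromosome 13.

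Member peaks were narrow. The median width was 184 bp and 172 bp in controls 1 and 2, and 150 bp and 173 bp in siORCA 1 and 2, against 219, 190, 169 and 214 bp in the rest of the genome. The members were narrower in 4 of 4 samples, by a mean of 28.3 ± 11.5 bp (SD, n = 4; exact sign-flip permutation test, p = 0.13). Peaks over 1000 bp made up 1.61%, 1.32%, 0.982% and 1.35% of members, against 3.40%, 2.38%, 2.17% and 3.60% of the rest. The widest member peaks, at 3216, 3159, 3176 and 3077 bp, were all on chromosome 4. Widths were alike on the 3 chromosomes, with chromosome 4 the narrowest and chromosome 18 the widest in each sample (180 and 192 bp in control 1, 146 and 157 bp in siORCA 1).

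**Figure D2:**
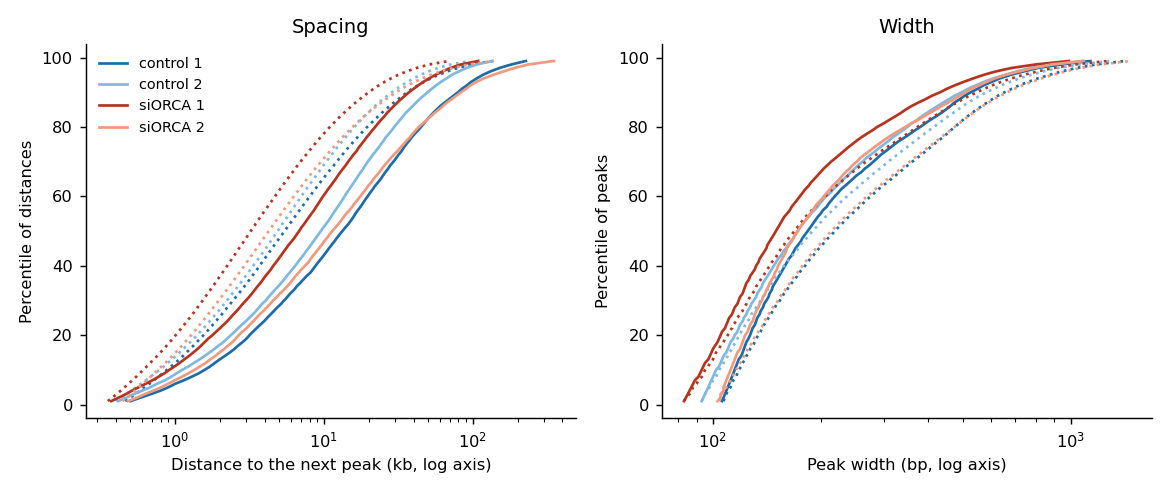
Percentiles of the distance to the next peak (left, kb on a log axis) and of peak width (right, bp on a log axis), 1 colour per sample. Solid lines are the members. Dotted lines are the other chromosomes on the left and the rest of the genome on the right. In each sample the solid spacing line lies to the right of its dotted line (median 13.3 against 5.44 kb in control 1) and the solid width line to the left (184 against 219 bp).

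The authors' fold enrichment, the peak's signal over the caller's background within its own list, had member medians of 3.64 and 3.87 in controls 1 and 2, and 4.36 and 4.19 in siORCA 1 and 2. In the rest of the genome the medians were 3.83, 3.95, 4.52 and 4.21, higher in 4 of 4 lists (exact sign-flip permutation test, p = 0.13). The share of members whose −log10 q reached 3 or more was 27.3%, 37.3%, 60.9% and 54.0%. Both siORCA lists thus had a larger share of such peaks than either control list, with means of 57.4 ± 4.89% and 32.3 ± 7.03% (SD, 2 samples a group; two-sided exact permutation p = 0.333, the smallest that 2 against 2 samples allow), as they did in the rest of the genome (64.9% and 57.0% against 36.4% and 41.9%).

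Against this sparse background a few windows were crowded. A dense window was defined as one with at least 2 times the list's own genome-wide median count (41, 60, 81 and 41 peaks) in each of the 4 lists. There were 13 among the 343 member windows (3.79%), and 575 among the 2698 windows elsewhere (21.3%). Chromosome 4 had 8 of them, all within the first 9 Mb of its short arm. Chromosome 13 had 2, from 111 and 112 Mb near its long-arm end, and chromosome 18 had 3, from 37, 48 and 79 Mb. The nearest windows below the limit were on chromosome 13 from 110 Mb and chromosome 18 from 10 Mb, where the lowest of the 4 lists reached 1.98 and 1.95 times its median.

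The densest window was on chromosome 13 from 112 to 113 Mb. It held 197 and 231 peaks in controls 1 and 2, and 296 and 252 in siORCA 1 and 2, which covered 80.6, 80.4, 85.4 and 106 kb. Relative to its own median, siORCA 2 stood highest there, at 6.15 times, and siORCA 1 lowest, at 3.65 times. On chromosome 4 from 7 to 8 Mb the lists held 201, 216, 302 and 190 peaks, and from 8 to 9 Mb 174, 238, 290 and 172. The window of chromosome 4 from 1 to 2 Mb held 158, 202, 292 and 169, and that of chromosome 13 from 111 Mb held 139, 187, 266 and 189. These 5 windows lay at 3.60 to 4.61 times the lists' medians on average over the 4 samples.

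Dense sequence lay mostly toward arm ends, but the ends differed. The outer 10 Mb of the 5 arm ends on these stretches together held 70.0, 93.2, 130.1 and 70.8 peaks per Mb, against 26.3, 43.2, 56.0 and 22.2 in the interior. The short-arm end of chromosome 4 held 1257, 1612, 2193 and 1208 peaks in 10 Mb. The long-arm end of the same chromosome held 378, 609, 745 and 317, fewer in every sample and close to the genome-wide median per Mb (0.773 to 1.02 times). The long-arm end of chromosome 13 lay at 1.64 to 1.99 times the lists' medians, and both ends of chromosome 18 at 1.16 to 1.74 times. The dense windows of chromosome 18 from 37 and 48 Mb were far from either end.

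At the other extreme, 80 member windows (23.3%) were poor, with at most 0.5 times the list's median in each of the 4 lists. Elsewhere 396 windows (14.7%) were, satellite blocks included. Chromosome 13 had the largest share, 31 of 95 windows, against 35 of 180 on chromosome 4 and 14 of 68 on chromosome 18. Runs of at least 3 adjacent poor windows formed 8 poor domains over 45 Mb, 13.1% of the member windows. Runs of the same kind took up 11.1% of windows elsewhere, where the longest, on chromosome 9, spanned 27 Mb. Of the 299 Mb in runs elsewhere, 85 Mb were on X. Windows elsewhere include centromeric stretches, which the members leave out, so the shares are of unlike sequence.

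The longest poor domains were both on chromosome 13 and spanned 10 Mb each. From 61 to 71 Mb the lists held 79 and 146 peaks in controls 1 and 2, and 192 and 37 in siORCA 1 and 2. From 80 to 90 Mb they held 84, 160, 225 and 43. These counts amount to 0.0902 to 0.278 times the lists' genome-wide medians per Mb. A domain of 6 Mb on chromosome 4 from 136 to 142 Mb held 61, 121, 142 and 26 peaks. The domains of 5 Mb that begin at 53 Mb of chromosome 13 and at 65 Mb of chromosome 18 held 51, 93, 127 and 24, and 50, 100, 145 and 27. In all 8 domains siORCA 2 was the lowest relative to its own median, at 0.0902 to 0.179 times, and the other lists lay at 0.193 to 0.407 times.

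**Figure D3:**
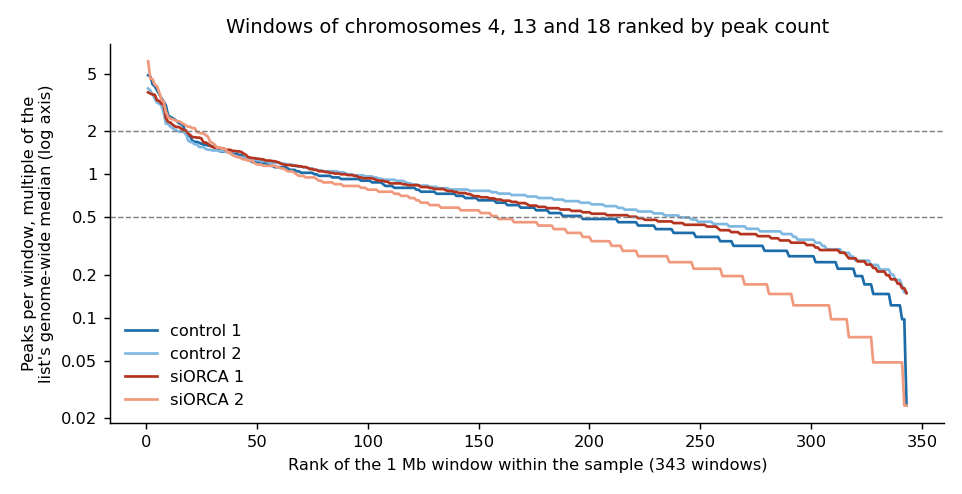
Peak count of each of the 343 member windows as a multiple of the list's own genome-wide median (vertical, log axis), ranked within each sample (horizontal), 1 line per sample, with dashed lines at 2 and 0.5. The siORCA 2 line is the steepest: 185 of its windows lie at or under 0.5, against 147 in control 1, 103 in control 2 and 122 in siORCA 1, and 22 at or over 2, against 17, 14 and 18.

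The lists agreed on the weight of the dense windows and differed on the rest. The 13 dense windows held 1.02% and 0.955% of all listed peaks in controls 1 and 2, and 0.939% and 0.943% in siORCA 1 and 2. The 80 poor windows held 0.488%, 0.678%, 0.618% and 0.243%. The groups did not overlap in the dense windows (siORCA 0.941 ± 0.0030%, control 0.985 ± 0.0432%, SD, n = 2 each; exact permutation test, p = 0.333, the smallest possible), where both siORCA lists were lower. With lists shortened to equal covered length the dense shares were 1.02%, 1.01%, 1.03% and 0.975%, and the groups overlapped. With peaks whose −log10 q was 3 or more the groups did not overlap (1.08% and 1.17% in control, 1.01% and 1.06% with siORCA). By covered length in the full lists they did not overlap either, at 1.13% and 1.14% against 1.07% and 0.998% (exact permutation p = 0.333, the smallest possible). In the poor windows siORCA 2 alone was low and siORCA 1 lay between the controls. The 34 densest of the 343 windows held 30.7%, 25.4%, 27.4% and 36.8% of the sample's peaks in these windows, highest in siORCA 2. An equal fraction of the windows elsewhere, the densest there, held 30.1%, 26.3%, 26.8% and 31.7%, also highest in siORCA 2.

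Peaks were wider in dense than in poor windows in each list, and the windows between them lay between in width. Median widths in dense windows were 251, 232, 194 and 238 bp, against 163, 156, 136 and 148 bp in poor windows. The median distance to the next peak was 3.56, 3.02, 2.09 and 3.24 kb in dense windows and 54.1, 31.8, 24.0 and 92.3 kb in poor ones. Because the classes were set by peak count, this order of distances restates their definition. Peaks over 1000 bp made up 2.77% to 4.17% of peaks in dense windows and 0% to 0.375% in poor windows. The median fold enrichment was higher in dense than in poor windows in each list, at 3.88 against 3.50 in control 1 and 4.46 against 4.18 in siORCA 2. In the windows between them it lay between these values in 3 lists, but in siORCA 2 it was 4.12, below that of the poor windows.

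Sharing of single regions between samples was low, although counts per 1 Mb window went together. Over the 343 member windows, log2 counts (plus 1) of pairs of samples had Pearson correlations of 0.880 to 0.929. In windows elsewhere these were 0.922 to 0.977. The member peaks of all 4 lists merged into 41740 regions, of which 2218 (5.31%, Wilson 95% interval 5.10 to 5.53%) were in all 4 lists and 29633 (71.0%) in 1 list alone. In the rest of the genome, 11.1% of 493836 regions were in all 4 and 59.2% in 1. The intervals cover counting error only, and neighbouring regions are not independent. Seen from each list, 20.2%, 13.3%, 10.3% and 22.8% of member peaks lay in a region held by all 4, against 34.2%, 27.3%, 20.2% and 31.0% of other peaks, lower in 4 of 4 samples (exact sign-flip permutation test, p = 0.13; the lists share these regions, so the 4 values are not independent). Sharing depends on list length and depth as well as on origin use. With lists of equal covered length, 5.61% of the member regions and 11.5% of the others were in all 4.

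Sharing differed with density too. In dense windows 15.3% of regions were in all 4 lists, in poor windows 1.6% (65 of 4074 regions), and in the windows between them 4.09%. The classes were set by the peak counts of these same 4 lists, so part of this order is built in. How much overlap peak density alone would give was not tested. Regions in 1 list alone had a median width of 142 bp, and those in all 4 lists 565 bp after merging. Within single lists, member peaks in regions held by all 4 were 259 to 283 bp wide at the median, against 132 to 154 bp for peaks found alone. Member peaks in the top 25% by fold enrichment overlapped another list in 86.2%, 71.5%, 64.4% and 93.4% of cases, and those in the bottom 25% in 38.7%, 26.1%, 27.2% and 59.7%.

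**Figure D4:**
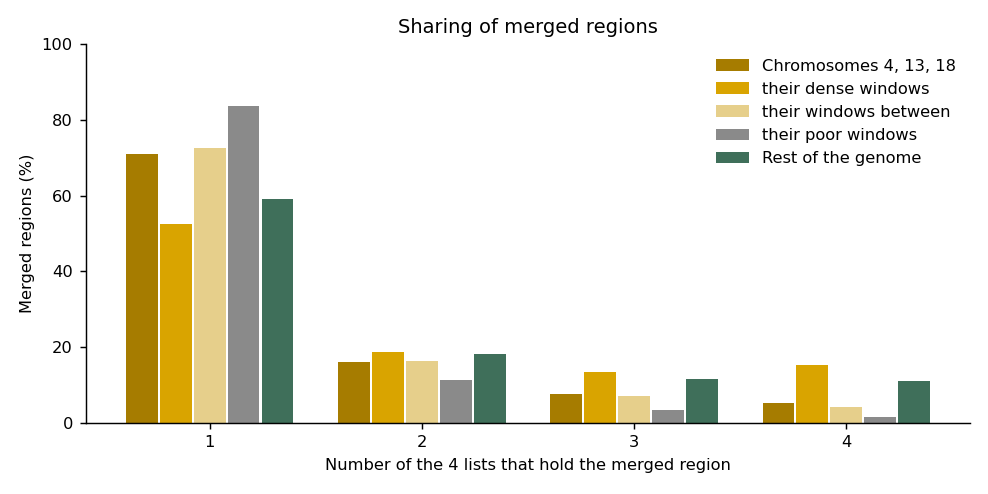
Percent of merged regions (vertical) held by 1, 2, 3 or 4 of the lists (horizontal), with bars for the members, for their dense, intermediate and poor windows, and for the rest of the genome. Regions in 1 list alone make up 71.0% of members and 83.7% of those in poor windows, and regions in all 4 lists make up 5.31% of members against 11.1% of the rest.

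Samples of one group did not overlap more than samples of different groups. The Jaccard index, the shared length divided by the joint length of 2 lists, was highest for control 1 with siORCA 2 (0.218) and next for the 2 siORCA lists (0.188). It was 0.151 for control 2 with siORCA 2, 0.146 for control 1 with siORCA 1, 0.128 for control 2 with siORCA 1 and 0.12 for the 2 controls, the lowest of the 6 pairs. Pairs of the same group averaged 0.157 and pairs across groups 0.160, and the SD over the 6 pairs was 0.0365. In the rest of the genome the 6 values ran from 0.189 to 0.295, and each was higher than the members' value for the same pair.

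The sites with the best mean rank by fold enrichment among regions in all 4 lists were spread over the 3 chromosomes. The first was a region of 909 bp on chromosome 18 from 80187299 to 80188207, close to the long-arm end, with a fold enrichment of 214 and 70.6 in controls 1 and 2, and 257 and 108 in siORCA 1 and 2, and ranks of 1, 18, 2 and 6 in the 4 lists. The second, of 752 bp, lay in the densest window, on chromosome 13 from 112731428 to 112732179, at 103, 74.6, 104 and 101. The next were on chromosome 4 from 1205925 to 1206288, in a dense window of the short arm, and from 168725384 to 168725869. The fifth was on chromosome 13 from 98673929 to 98674195, at 59.6, 50.2, 44.9 and 48.7. Of the 2218 member regions in all 4 lists, 8 ranked within the first 1000 of every list. The count for the rest of the genome was not computed. Folds and ranks are the authors' values within lists of different length and show no change between them.

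The comparison of siORCA with control asks whether origin activity on these chromosomes differs when ORCA is targeted. Members made up 6.24% and 7.41% of listed peaks in controls 1 and 2, and 7.0% and 5.10% in siORCA 1 and 2. The siORCA mean was 6.05 ± 1.34% and the control mean 6.82 ± 0.831% (SD, n = 2 each; two-sided exact permutation p = 0.667), and siORCA 1 lay between the controls. By covered length the shares were 5.20%, 6.55%, 5.86% and 4.03%, with a control mean of 5.87 ± 0.955% and an siORCA mean of 4.94 ± 1.29% (SD, n = 2 each; exact permutation p = 0.667). Both differences lay within the spread between replicates. Without siORCA 2, the difference in the share of peaks turned to 0.175 percentage points above control. With the stricter lists (−log10 q of 3 or more) it was 0.0228 points above control.

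Median widths averaged 161.5 ± 16.3 bp for siORCA and 178 ± 8.49 bp for control (SD, n = 2 each; exact permutation p = 0.667), and over all members the groups overlapped. They did not overlap with lists of equal covered length (184 and 180 bp in control, 170 and 174 bp with siORCA) or with peaks whose −log10 q was 3 or more (209 and 202 bp against 166 and 181 bp), where both siORCA lists were narrower (exact permutation p = 0.333 for each, the smallest possible). In the rest of the genome the groups overlapped with the full lists (219 and 190 bp against 169 and 214 bp). Widths there were not computed with the other lists. On chromosomes 4 and 18 taken alone both siORCA lists were narrower than both controls (146 and 169 bp against 180 and 170 bp on chromosome 4; exact permutation p = 0.333, the smallest possible). Median spacing averaged 9.09 ± 3.22 kb for siORCA and 11.4 ± 2.67 kb for control (SD, n = 2 each; exact permutation p = 0.667). Peaks were closest and narrowest in the longest list, siORCA 1. With lists of equal covered length the spacing was 13.3, 11.5, 12 and 12.8 kb, and the difference turned to 0.0075 kb above control. With peaks whose −log10 q was 3 or more it was 37.3 and 23.3 kb in control and 10.6 and 20.1 kb with siORCA, a difference of −14.9 kb with no overlap of the groups (exact permutation p = 0.333, the smallest possible). These stricter lists held 65012 and 97973 peaks in control and 213328 and 112803 with siORCA, and spacing was shorter the longer the list. Spacing on the other chromosomes was not computed with them.

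Window by window, no member window passed the test. The length covered by peaks in each window, as a share of the sample's total, was compared with limma over 2464 windows of the genome that had a mean of at least 5 kb covered. Of the 343 member windows 229 passed that filter, while 79 of the 80 poor windows did not, so the poor domains were all but untested. In limma with Benjamini-Hochberg adjustment at 0.05, 0 member windows were higher and 0 lower (smallest adjusted p = 0.930), beside a background of 0.0812% of all windows called higher and 0% called lower. Without siORCA 1, which leaves 1 siORCA sample assumed to vary like the controls, 12 of the 229 member windows were called lower and 0 higher in limma (smallest adjusted p = 0.0104). In the same fit the background was 2.6% of all windows called lower (64 of 2464) and 0.731% called higher.

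At an unadjusted p under 0.05, 11 member windows were lower in siORCA and 0 higher, which is 11 of 229 beside 1.87% of all windows called lower and 3.08% called either way. The count rested on single samples: it was 0 without control 2, 2 without siORCA 2 and 83 without siORCA 1, where 14.4% of all windows were lower at that p. The log2 difference was below 0 in 203 of the 229 windows, with a median of −0.31, against a background of 61.7% of all windows below 0 (1520 of 2464) with a median of −0.09. The members' median moved with each sample left out: it was −0.01 without siORCA 2 (−0.01 over all windows), −0.61 without siORCA 1 (−0.16), −0.49 without control 1 (−0.13) and −0.16 without control 2 (−0.07). With peaks whose −log10 q was 3 or more it was −0.13 (−0.03 over all windows). Both siORCA samples had a smaller share than both controls in 37 of 229 windows (16.2%), where the background was 17.4%, and a larger share in 8 (3.49%), where it was 11.2%. By chromosome, the smaller share was found in 31 of 122 windows on chromosome 4 (25.4%). It was found in 4 of 58 on chromosome 13 (6.90%) and in 2 of 49 on chromosome 18 (4.08%). The larger share was found in 3, 0 and 5 of those windows, in the same order. The 11 windows at an unadjusted p under 0.05 split into 8, 0 and 3.

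Differences below 0 went with sparse windows over the whole genome. Among windows with 5 to 10 kb covered, the median log2 difference was −0.41 in 112 member windows and −0.31 in 552 others. It was −0.31 and −0.14 with 10 to 20 kb covered (79 and 610 windows), and −0.05 and −0.02 with 20 to 40 kb (26 and 533 windows). At 40 kb and more, 12 member windows had a median of −0.16 and 540 others 0.08. The part that window density plays in the members' median was not tested.

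**Figure D5:**
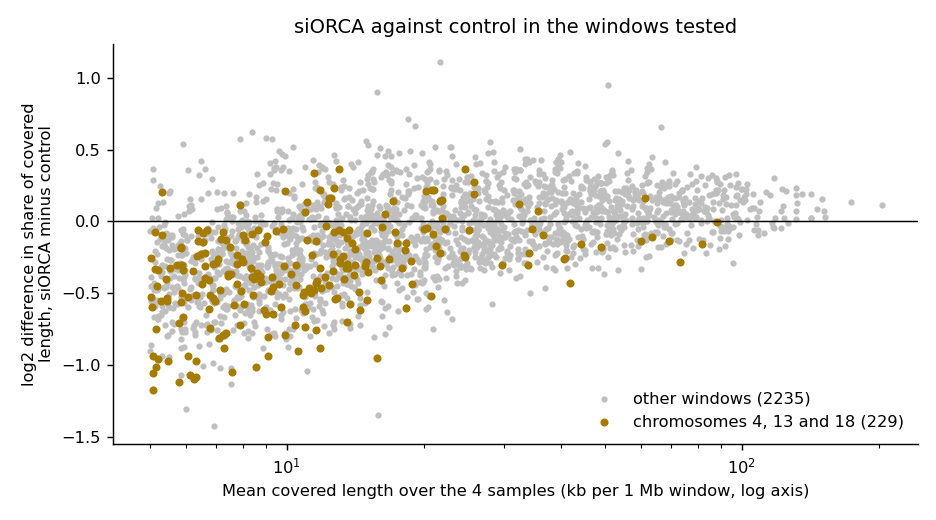
Log2 difference in the share of covered length, siORCA minus control (vertical), against the mean covered length per 1 Mb window (horizontal, kb on a log axis), 1 point per window tested. The 229 member windows lie mostly below 0 (203 of them), and none of the 229 passed limma's adjusted threshold. With 5 to 10 kb covered, 97.3% of member windows and 85.1% of others lie below 0. At 40 kb and more, 91.7% and 29.4% do.

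The member windows with the smallest p below control were on chromosome 4 from 189 and 115 Mb and on chromosome 18 from 51 Mb. Peaks in the first covered 14.5 kb and 24.9 kb in controls 1 and 2, and 15.3 kb and 8.26 kb in siORCA 1 and 2, and the log2 difference in shares was −0.95 (SE 0.30; adjusted p = 0.930 in limma). As shares of the list, in parts per 1000, both siORCA samples were lower there, at 0.178 and 0.129 against 0.249 and 0.371. The second had covered lengths of 9.45, 17.2, 8.95 and 6.67 kb (log2 difference −0.90), and in the third, at 10.1, 16.9, 16.8 and 3.64 kb (−0.88), the groups overlapped. Without siORCA 1 the windows from 189 Mb and from 51 Mb passed (limma, adjusted p = 0.0163 and 0.0149). Above control, the smallest p-values belonged to the windows of chromosome 18 that begin at 7 and 4 Mb (log2 differences 0.36 and 0.37) and to that of chromosome 4 at 38 Mb (0.27), and limma's adjusted p was 0.930 for each.

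By presence and absence, 1547 merged regions on these chromosomes were gained, meaning in both siORCA lists and neither control list, and 782 were lost, the reverse. These are 3.71% and 1.87% of the member regions, beside a background of 5.44% and 1.67% of all 535576 regions. The ratio of gained to lost was 1.98, against 3.37 in the rest of the genome. It moved with the lists used: with lists of equal covered length it was 1.10 on these chromosomes (975 gained, 889 lost) and 1.66 elsewhere, and with the stricter lists it was 10.4 and 13.6. Leaving out a sample turned its direction: it was 0.251 without control 1 and 0.508 without control 2, but 3.10 without siORCA 1 and 11.9 without siORCA 2, since the group left with 1 sample then counts every region of that sample that the other group lacks. Pairs that cross the groups had exclusive regions too: control 2 with siORCA 1 had 1955, control 1 with siORCA 1 had 1188, control 2 with siORCA 2 had 666 and control 1 with siORCA 2 had 578. Within the members the ratio was 2.60 in dense windows (229 gained, 88 lost), 1.92 between and 1.24 in poor windows (83 and 67). No test of these ratios was made.

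Among gained regions the widest was at 113258682 to 113260171 of chromosome 13, by the long-arm end, where siORCA 1 had 659 bp of peak and siORCA 2 had 1457 bp. Others were on chromosome 13 from 26095773 to 26097200 (1428 and 305 bp) and on chromosome 18 from 46540769 to 46542179 (1411 and 106 bp). Among lost regions it was at 37192858 to 37194514 of chromosome 4, where control 1 had 252 bp and control 2 had 1657 bp. It was followed by regions on chromosome 4 from 7942122 to 7943765, inside a dense window (464 and 1644 bp), and on chromosome 13 from 35176371 to 35177936 (201 and 1566 bp). In each of the 6, 1 sample of the group covered more than 2 times as much as the other.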

How the data were processed

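NS-seq peaks of 4 U2OS samples were analysed. BWA, SAMtools, MACS2 and the build T2T-CHM13 are named, per the submitters' processing notes. Versions, settings and any use of the genomic DNA as background are not given in the sources used here. Every deposited list, called per sample, gives for every peak a score, a fold enrichment (a linear ratio) and −log10 p and −log10 q values; the lowest deposited −log10 q is 1.30. The score was not used.

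Members, windows and lists were chosen with earlier results of these data known. Windows and regions named in the text are the 5 densest windows and 5 longest poor domains, the 3 windows each way with the smallest p, the 3 widest gained and lost regions and the 5 best-ranked shared regions. Chromosome ends were taken as the last listed peak end. Peaks were counted in windows by their start, and lists were merged where peaks touch or overlap by at least 1 bp. Window shares (log2 of covered length plus 1000 bp, over the sample's total) were fitted with limma 3.58.1 in R 4.3.3 (lmFit, eBayes with trend, Benjamini-Hochberg) across the genome, chromosome Y included, after tests on simulated data. The remaining values came from Python 3.11.15 with pandas 2.3.3, numpy 2.4.6 and scipy 1.17.1. No genome or annotation of the build was used, so no sequences or genes of windows are given.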

Additional observations from a re-analysis of the deposited data

How the results depend on the processing

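Each choice was changed by itself. Lower peak density than elsewhere kept its direction in all settings tried for it (mean log2 ratio −0.75 to −1.06). The difference in the share of listed peaks (siORCA minus control) turned to 0.0228 percentage points with a −log10 q of at least 3, and ran from −1.72 to 0.175 with each sample left out. The difference in spacing turned to 0.0075 kb at matched covered length. It was −14.9 kb with a −log10 q of at least 3 (p = 0.333 by exact permutation), where both siORCA lists were longer than both control lists. The difference in width was −10 and −32 bp in the same order (p = 0.333 for each, exact permutation). Called member windows stayed at 0 in limma with a stricter list, matched length, a replicate block (0 higher, 0 lower), another pseudocount, no filter, median centring and 250 kb windows. With each sample left out, 0 to 12 were called lower, the 12 without siORCA 1, where 2.6% of all windows were. At an unadjusted p under 0.05 the count ran from 0 to 83 lower, and was 1 with the block and 39 with the crossed block. The numbers do not pair the samples by the labels, and deviations of same-numbered samples correlated at −0.458 over 2464 windows, so a crossed block was added after seeing the data, with 0 called. The share of all windows at an unadjusted p under 0.05 was computed only for the main fit and the fit without siORCA 1. The other counts at that p, 1 and 39 among them, thus have no background beside them.

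Lost regions numbered 126 with the stricter list, and gained regions 975 at matched length. With each sample left out, gained regions ran from 2632 to 14899 and lost regions from 1247 to 10469, since a single sample then stands for its group, and their ratio ran from 0.251 to 11.9. The share of regions in all lists was 4.58% with the stricter list, 5.61% at matched length, 7.35% with gaps of 1 kb merged, 1.54% where a list must cover 0.5 of the region, and 6.85% to 10.2% with a sample left out. The share in 1 list was 72.1%, 69.4%, 63.4%, 80.5% and 73.1% to 76.5% in the same order. Dense windows numbered 13 to 19 and poor domains 8 to 12. With a sample left out, fewer lists must meet the limit, so dense and poor windows could only be kept or added. The stricter list, matched length and covered length in place of peak count could lose windows. They kept all 13 dense windows, and 74, 74 and 78 of the 80 poor windows in that order. Poor domains covered 48 to 68 Mb with each sample left out, against 45 Mb, the 68 Mb without control 2. The depth of each list is unknown, which limits every comparison of numbers, lengths and sharing.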
